A study of Mus musculus with 32 samples.

Results

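The 13 subcutaneous tumors grown from the MC38 parental line were compared with 2 libraries of the same line in culture, 15 of the 32 libraries of the series, chosen by the line and setting in their labels. MC38 is a mouse cell line labelled as colon adenocarcinoma. The tumors grew in C57BL6/J mice that received no treatment, and the cultured cells were untreated as well. The other 17 libraries are 12 tumors and 5 cultures of an MC38 line resistant to anti-PD-1. They are given only where the tumor-culture difference was compared between the lines, and for Mmp9. The labels name no age, sex or time of growth, and do not say that the 2 parental cultures were grown separately, so p-values measure the spread between these libraries, part of which may be technical. Each tumor library holds RNA from the cancer cells and from the host's own cells, so more cells of a type and more RNA per cell cannot be told apart in any result given here.

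A tumor cell line in a dish is a population of 1 kind of cell in rich medium and ample oxygen. After injection under the skin the same cells share space with vessels, fibroblasts, macrophages and lymphocytes of the host, and macrophages are often the most abundant immune cells of such tumors. Interferons released there act through the kinases JAK1, JAK2 and TYK2 and the transcription factors they activate. They induce antiviral genes, antigen presentation genes and chemokines, both in host cells and in cancer cells that carry the receptors. The comparison therefore measures the host cells of the tumor and the change of the cancer cells at once.

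Values are TPM, a share of each library's transcripts corrected for gene length and scaled to a fixed total. Read depth is unknown for TPM, so no counting error can be given. The test covered the 14348 of 22329 genes with 1 TPM or more in no fewer than 2 of the 15 libraries. Fold changes are differences of log2(TPM + 1), tumor minus culture, with their standard error (SE). They understate the change of genes at low levels. Where a gene is listed at 0 in both cultures its levels are given without a fold change, because genes that every cell uses, among them mt-Co2 and mt-Co3, are also listed at 0. The titles of all tumor libraries share one prefix and those of all culture libraries another, so the setting and any difference between these library series cannot be told apart. The tumors had 11963 to 13308 genes at 1 TPM or more, and the cultures 10654 and 10978. Genes under 1 TPM in both cultures made up 1.25 to 2.10% of the tumors' TPM. Their share of the cultures' own TPM, 0.0468% and 0.0676%, is low by that choice of genes. Tumors 2, 3, 7 and 8 stood apart by a shift toward GC-rich transcripts (GC index above 0.5, where the index is the median log2 deviation of GC-rich minus GC-poor transcripts). Tumor 3 had the lowest total of leukocyte genes.

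Of the genes tested, 2310 were higher in the tumors, which is 16.1%, and 859 were lower, which is 5.99%, at an adjusted p under 0.05 (limma with Benjamini-Hochberg adjustment). With the call and at least a 2-fold change, 1869 genes were higher (13.0%) and 419 were lower (2.92%). All 13 tumors lay above both cultures for 2818 genes (19.6%) and below both for 1282 (8.94%). The median log2 fold change of all genes tested was 0.21. After quantile normalization, which moved that median by -0.25, the calls split into 1622 higher and 1492 lower, so that 52.1% rather than 72.9% of them were higher. Of the genes called higher, 1023 were among the 3252 tested genes under 1 TPM in both cultures. Those 3252 passed the filter only through the tumors, so they could hardly be called lower. Another 534 were among the 7389 tested genes at 10 TPM or more in both. With only 2 cultures, each of them carries weight. Leaving out culture 1 left 1060 higher and 301 lower genes, and leaving out culture 2 left 1419 and 249. Of 185 named genes past the threshold, 116 stayed past it when either culture was left out. Those that did not are marked with the adjusted p of that fit, and a count that moves by over 1.5 times is given both ways or said to move.

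Among genes averaging 10 TPM or more where they were higher, the largest rise was that of Tmsb4x, which encodes the actin monomer binding protein thymosin beta 4. It was at 0.386 and 0.768 TPM in the cultures and at 444 to 1603 TPM in the tumors (median 897), a log2 fold change of 9.20 ± 0.34 (SE; adjusted p = 2.57e-12). Apoe, the lipid carrier apolipoprotein E, followed with 2.14 and 1.86 TPM in the cultures and 510.2 to 3156 TPM in the tumors (median 1671; log2 fold change 9.02 ± 0.45; adjusted p = 7.47e-11). Both were lowest in tumor 3, which had the lowest leukocyte sum and was also 1 of the 4 tumors of GC index above 0.5. A link to either was not tested. The other 10 of the 12 largest rises were Ctss, Ms4a4c, Fcer1g, Cd52, Cd74, Cxcl9, C1qa, Bgn, C1qb and Gzmc. Most of these genes are known from macrophages, antigen presenting cells or cytotoxic lymphocytes, and Bgn, which encodes the matrix proteoglycan biglycan, from stromal cells. Gzmc, a granzyme of activated cytotoxic cells with close paralogs, was at 0.150 and 0.196 TPM in the cultures and between 103 and 271 TPM in the tumors (log2 fold change 7.16 ± 0.31; adjusted p = 2.25e-11). No tumor overlapped a culture for any of the 12 genes, which follows largely from choosing the largest rises in the same libraries. Over all genes tested, 19.6% had every tumor above both cultures.

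Leukocyte genes as a whole separated the settings. All 15 of the 15 leukocyte genes were higher in the tumors, with a median log2 fold change of 3.94, beside 0.21 over all genes tested. Their summed level was 8.09 and 16.5 TPM in the cultures and 454 to 1401 TPM in the tumors, with a median of 1065 TPM. Ptprc, the leukocyte phosphatase CD45, was at 0 and 0.0441 TPM in culture and at 14.5 to 53.7 TPM in the tumors (median 34.6; log2 fold change 5.10 ± 0.34; adjusted p = 3.02e-09). Laptm5, a lysosomal membrane protein of blood cells, rose from 2.21 and 4.67 TPM to between 124 and 459 TPM (log2 fold change 6.27 ± 0.36; adjusted p = 3.84e-10). Tumor 3 was the lowest for both, and every tumor was above both cultures for all 15 genes.

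**Figure D1:**
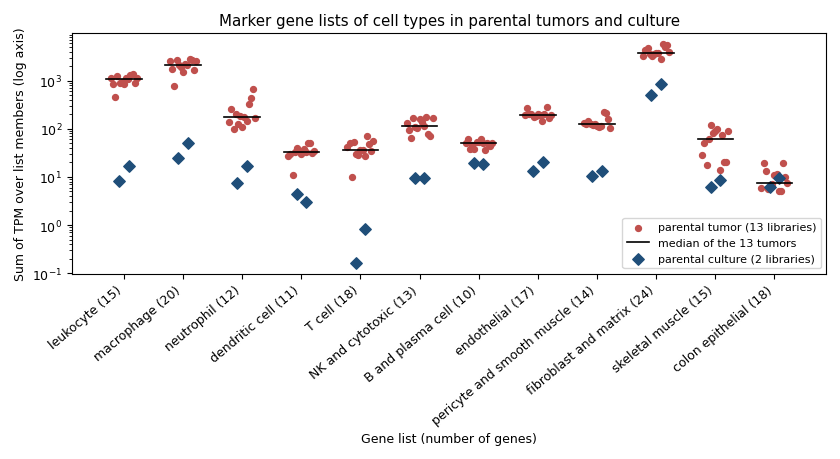
Summed TPM of marker gene lists (log axis) in each of the 13 parental tumors (red), with their median (black line), and in the 2 parental cultures (blue diamonds). The leukocyte list sits between 454 and 1401 TPM in the tumors against 8.09 and 16.5 TPM in culture, while the colon epithelial list overlaps between the settings.

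Macrophage genes showed the largest median of the cell type lists. In that list 17 genes were under 1 TPM in both cultures and could hardly be called lower. Of 20 macrophage genes, 19 were higher and none was lower, with a median log2 fold change of 5.29 and a summed level of 25.1 and 49.9 TPM in culture against 791 to 2788 TPM in the tumors. C1qa, a chain of the complement protein C1q that tissue macrophages make, was at 0 and 0.122 TPM in culture and at 80.8 to 300.3 TPM in the tumors (median 214; log2 fold change 7.60 ± 0.35; adjusted p = 5.04e-11). Csf1r, the receptor for the macrophage growth factor CSF1, was at 0.0658 and 0.0430 TPM against 10.9 to 71.3 TPM (median 34.6; log2 fold change 4.96 ± 0.40; adjusted p = 3.18e-08). Ms4a7 was listed at 0 in both cultures and lay between 43.5 and 134 TPM in the tumors (adjusted p = 2.25e-11). Adgre1, which encodes the macrophage antigen F4/80, was listed at 0 in both as well and at 8.23 to 34.5 TPM in the tumors (adjusted p = 2.00e-08). All 4 of these defining markers were at or near 0 in culture, and all 4 were lowest in tumor 3. The mannose receptor gene Mrc1 was lower in level, at 4.04 to 19.3 TPM in the tumors, and the scavenger receptor gene Cd163 lower still, at 0.688 to 8.65 TPM (adjusted p = 0.0168, and 0.141 and 0.136 without culture 1 and 2). The only macrophage gene past neither threshold was Cd14, a lipopolysaccharide co-receptor, which the cultures themselves held at 11.4 and 13.5 TPM beside a tumor median of 14.6 TPM.

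Lymphoid genes were present at lower levels. All 18 genes of the T cell list were under 1 TPM in both cultures. Those tested passed the filter only through the tumors, so they could hardly be called lower. Of all such genes tested, 1023 of 3252 were called higher. Of 15 T cell genes tested (18 in the list), 9 were higher and none lower, with a median log2 fold change of 1.31 and a sum of 0.166 and 0.832 TPM in culture against 9.96 to 69.6 TPM in the tumors. Without either culture, only 3 of them were called. Cd3e, a chain of the T cell receptor complex, was listed at 0 in both cultures and at 1.23 to 19.2 TPM in the tumors (median 7.07; adjusted p = 0.00107), lowest in tumor 3 and highest in tumor 10. Cd8a, the marker of cytotoxic T cells, was listed at 0 in both and at 0.147 to 4.08 TPM in the tumors (median 2.04; adjusted p = 0.00982, and 0.111 and 0.0969 without culture 1 and 2). Foxp3, the factor of regulatory T cells, reached 1.97 TPM at most (median 1.12; adjusted p = 0.0294, and 0.172 and 0.205 without culture 1 and 2). Pdcd1, which encodes PD-1, did not pass the threshold at 0.303 to 1.37 TPM in the tumors and 0 and 0.292 TPM in culture (log2 fold change 0.67 ± 0.28; adjusted p = 0.0922).

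Among 12 NK and cytotoxic genes tested, 8 were higher and none lower (6 without either culture). Of the 13 genes in that list, 12 were under 1 TPM in both cultures and could hardly be called lower. Gzmb, the granzyme B gene, was listed at 0 in both cultures and at 13.5 to 70.9 TPM in the tumors (median 39.5; adjusted p = 3.00e-08). The pore protein gene Prf1 was listed at 0 in both and at 5.39 to 25.5 TPM in the tumors (adjusted p = 1.21e-06). Ncr1, the NK cell receptor NKp46, was listed at 0 in both and at 1.24 to 5.72 TPM in the tumors (adjusted p = 0.000225). All 13 tumors were above both cultures for these 3 genes. Ifng itself, the gene of the cytokine interferon gamma, was near its floor, at 0 to 2.97 TPM in the tumors and 0 and 0.737 TPM in culture, with overlap between the settings (adjusted p = 0.466).

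Other blood cell types gave fewer calls. Of 9 neutrophil genes tested, 6 were higher (2 and 3 without culture 1 and 2). Csf3r, the receptor of the neutrophil growth factor, was listed at 0 in culture and at 2.50 to 12.2 TPM in the tumors (adjusted p = 7.09e-06). Mmp9, described with the matrix proteases, is also on this list, and the resistant cultures expressed it. S100a8, an abundant neutrophil protein gene, did not pass at 1.01 to 16.99 TPM against 2.27 and 0 TPM (adjusted p = 0.0686), and Ly6g, Retnlg and Cxcr2 were too low to be tested. Of 6 dendritic cell genes tested, 4 were higher (2 without either culture), and Flt3 and Xcr1 were too low to be tested. Itgax, the integrin CD11c of dendritic cells and some macrophages, was at 0 and 0.207 TPM in culture and at 2.61 to 29.5 TPM in the tumors (log2 fold change 3.95 ± 0.50; adjusted p = 1.09e-05). All 4 B cell genes tested were higher (1 and 2 without culture 1 and 2), among them Cd79a, a chain of the B cell receptor complex, at 0.826 and 0.276 TPM in culture against 3.12 to 15.1 TPM (log2 fold change 2.55 ± 0.38; adjusted p = 7.40e-05). The B cell list holds 10 genes, of which 6 were not tested. In it 9 were under 1 TPM in both cultures, and such genes could pass the filter only through the tumors. Ms4a1, a defining B cell marker, had a tumor median of 0.186 TPM. Pax5, a B cell transcription factor, was already at 19.0 and 17.4 TPM in the cultures and at 23.8 to 40.01 TPM in the tumors (adjusted p = 0.0160, and 0.109 and 0.161 without culture 1 and 2).

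Vessel and stromal genes rose with the immune genes. Of the 17 endothelial genes 14 were under 1 TPM in both cultures, and of the 14 pericyte and smooth muscle genes 10. Such genes passed the filter only through the tumors and could hardly be called lower. Of 17 endothelial genes, 16 were higher and none lower (13 without either culture), with a median log2 fold change of 2.50. Pecam1, the endothelial junction protein CD31, was at 0 and 0.149 TPM in culture and at 13.2 to 21.96 TPM in the tumors (median 15.5; log2 fold change 4.04 ± 0.22; adjusted p = 2.58e-10). Kdr, the receptor VEGFR2, was listed at 0 in both cultures and at 3.86 to 7.48 TPM in the tumors (adjusted p = 1.53e-07). The endothelial sum varied less from tumor to tumor than the leukocyte sum, from 147 to 285 TPM. Of 14 pericyte and smooth muscle genes, 10 were higher and none lower, with Acta2, smooth muscle actin, at 0 and 0.506 TPM in culture and 10.96 to 42.3 TPM in the tumors (log2 fold change 4.23 ± 0.36; adjusted p = 6.34e-08). Pdgfrb, the receptor that pericytes need, was at 5.73 and 4.55 TPM in culture and at 30.9 to 137 TPM in the tumors (log2 fold change 3.06 ± 0.40; adjusted p = 1.43e-05). Of 15 skeletal muscle genes 3 were higher (1 without either culture), with a median log2 fold change of 1.33 and every tumor above both cultures for 8 of them. The share of muscle genes called higher was near the 16.1% of all genes tested. Over all genes, 19.6% had every tumor above both cultures. The muscle list summed to 6.25 and 8.72 TPM in culture and 14.2 to 119.5 TPM in the tumors, with a median of 59.8 TPM. Tnnt3, a fast muscle troponin, was listed at 0 in culture and at 1.36 to 40.2 TPM in the tumors (adjusted p = 0.00559, and 0.0795 and 0.0695 without culture 1 and 2). Of 9 adipocyte genes 1 was higher, Fabp4, which endothelial cells and macrophages also express, at 1.53 and 1.66 TPM against 18.3 to 114 TPM (log2 fold change 3.68 ± 0.42; adjusted p = 3.00e-06). Of 9 keratinocyte genes 1 was higher, and the same held for 5 mast cell, 5 nerve and 4 erythroid genes tested. None of these 4 lists kept a call when either culture was left out.

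Interferon genes rose as 1 block. All 32 type I interferon response genes were higher in the tumors, with a median log2 fold change of 2.87. The DNA element known to mediate this response holds GAAA-like blocks at a fixed spacing. The 9 letters GAAANNGAA, searched on both strands and allowing overlapping matches, occurred in the promoter window (250 bases before to 50 after the gene start, RefSeq, GRCm38.p6) of 12 of the 22 list genes that have a window there, or 54.5%, beside 9.8% of 27025 genes with a window. The 5 windows printed here are those of genes with 2 or 3 matches upstream of the start whose values follow. They run 5′ to 3′ along the gene, and capitals mark the matched letters, which appear as their reverse complement where the match is on the other strand.
Isg15 (chr4:156200856-156200916, minus strand): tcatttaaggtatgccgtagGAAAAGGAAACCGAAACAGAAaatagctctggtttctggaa
Ifit1 (chr19:34640760-34640833, plus strand): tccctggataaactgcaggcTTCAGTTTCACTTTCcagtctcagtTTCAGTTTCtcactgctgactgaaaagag
Ifit3 (chr19:34583354-34583455, plus strand): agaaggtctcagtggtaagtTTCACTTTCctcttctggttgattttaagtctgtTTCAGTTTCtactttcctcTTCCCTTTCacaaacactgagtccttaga
Oas3 (chr5:120777700-120777754, minus strand): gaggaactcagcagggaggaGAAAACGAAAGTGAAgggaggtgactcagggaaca
Bst2 (chr8:71537568-71537622, minus strand): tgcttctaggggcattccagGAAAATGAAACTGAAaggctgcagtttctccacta
Isg15 holds 3 overlapping matches, the first 78 bases before the start. Ifit1 and Ifit3 hold 3 each on the other strand, Oas3 holds 2 from 75 bases and Bst2 2 from 130 bases before it. The window of Ifit3b, a near copy of Ifit3, has the same 102 letters. They lie before the gene start and do not show whether the 2 genes share reads. How reads were divided between these 2 genes was not tested. A match of letters is a description and not a bound site.

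Isg15, the ubiquitin-like modifier, was at 33.5 and 198 TPM in cultures 1 and 2 and at 456 to 818 TPM in the tumors (median 672; log2 fold change 3.01 ± 0.37; adjusted p = 7.71e-06). Ifit3, which binds the antiviral RNA sensor Ifit1, was at 0.374 and 1.79 TPM against 39.0 to 94.7 TPM (log2 fold change 4.89 ± 0.28; adjusted p = 3.86e-10). Ifit1 was at 0.902 and 11.9 TPM against 28.5 to 79.7 TPM (log2 fold change 3.54 ± 0.46; adjusted p = 1.34e-05). Every tumor was above both cultures for these 3 genes. Irf7, the factor that amplifies interferon production, was at 1.41 and 18.8 TPM in culture and at 152 to 413 TPM in the tumors (log2 fold change 5.38 ± 0.46; adjusted p = 8.09e-08).

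The 2 cultures themselves differed in this block. Their summed level was 536 TPM in culture 1 and 2025 TPM in culture 2, beside 3606 to 6795 TPM in the tumors, so that the size of the rise depends on the culture. Without culture 1, the lower of them, 21 of the 32 genes were called, and without culture 2 all 32 were. Rsad2, the antiviral enzyme viperin, shows the range, with 4.55 and 87.9 TPM in culture and 79.5 to 222 TPM in the tumors (log2 fold change 2.66 ± 0.60; adjusted p = 0.00326). Without culture 1 its log2 fold change was 0.66 with an adjusted p of 0.430. Oas3, which makes the activator of RNase L, went from 4.57 and 27.1 TPM to 34.8 to 61.0 TPM (log2 fold change 1.92 ± 0.36; adjusted p = 0.000695, and 0.124 without culture 1). Bst2, the virus tether tetherin, went from 276 and 721 TPM to 678 to 1339 TPM (log2 fold change 1.32 ± 0.26; adjusted p = 0.000969, and 0.166 without culture 1). The lowest tumor lay below culture 2 for Rsad2 and Bst2 and above it for Oas3. The genes Ifi47, Ifit3, Mx1 and Ifi27l2a, with the lowest adjusted p of the list, were under 8 TPM in both cultures and were called without either.

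**Figure D2:**
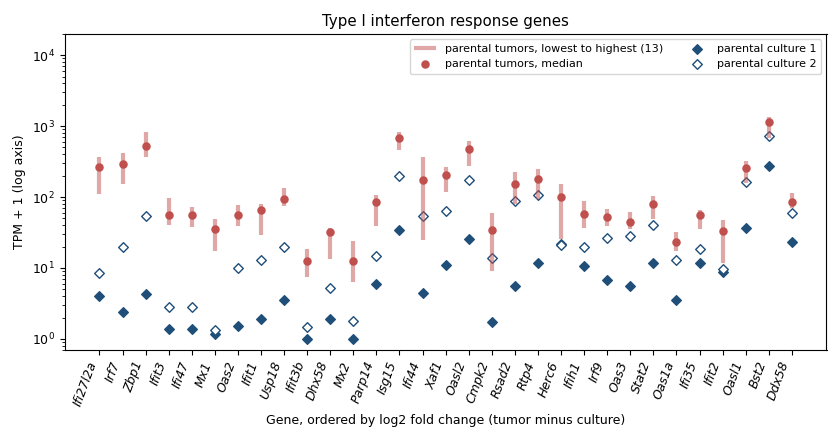
TPM + 1 (log axis) of 31 of the type I interferon response genes, ordered by log2 fold change, in parental culture 1 (filled diamond) and 2 (open diamond) and in the 13 parental tumors (bar from lowest to highest, dot at the median). Culture 2 lies above culture 1 for 30 of the 31 genes, and its Rsad2 level of 87.9 TPM falls inside the tumors' range of 79.5 to 222 TPM.

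Genes known to answer interferon gamma rose as well, 21 of 22 with none lower (15 and 19 without culture 1 and 2), with a median log2 fold change of 3.46. Gbp2, a guanylate binding protein that attacks the vacuoles of microbes, was at 2.58 and 6.89 TPM in culture and at 77.0 to 151 TPM in the tumors (log2 fold change 4.27 ± 0.26; adjusted p = 8.28e-10). Batf2, a transcription factor of activated macrophages, was at 0 and 0.490 TPM against 27.7 to 60.5 TPM (log2 fold change 5.01 ± 0.24; adjusted p = 6.46e-11). Irf1, a factor induced early by interferon gamma, was at 38.1 and 39.0 TPM in the cultures and at 112 to 332 TPM in the tumors (log2 fold change 2.08 ± 0.29; adjusted p = 3.03e-05). The rise of Irf1 was 2.06 without culture 1 and 2.10 without culture 2.

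Antigen presentation genes followed, with the exception of the endoplasmic reticulum chaperones. Of 16 MHC class I and peptide loading genes, 12 were higher and 2 lower. H2-K1, a class I heavy chain whose reads can be shared with other H2 genes, rose from 180.1 and 289 TPM to between 986 and 1726 TPM (log2 fold change 2.45 ± 0.22; adjusted p = 1.12e-07). B2m, the common light chain, went from 1373 and 2369 TPM to a tumor median of 10370.4 TPM (log2 fold change 2.59 ± 0.25; adjusted p = 4.52e-07). Tap1, a chain of the peptide transporter, went from 25.0 and 38.2 TPM to between 130.3 and 203 TPM (log2 fold change 2.40 ± 0.20; adjusted p = 5.58e-08). The lower 2 were Calr (adjusted p = 0.104 without culture 2) and Pdia3, which help class I and many other glycoproteins to fold. Pdia3 went from 838 and 1015 TPM to between 251 and 529 TPM (log2 fold change -1.16 ± 0.21; adjusted p = 0.000469).

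Among class II genes, 5 of 10 were under 1 TPM in both cultures, and the sum of the list was 8.60 and 26.7 TPM there against 127 to 1302 TPM in the tumors. Of 10 tested, 8 were higher and none lower (4 and 6 without culture 1 and 2). Cd74, the invariant chain, was at 0.196 and 2.002 TPM in culture and at 62.9 to 1028 TPM in the tumors (median 406; log2 fold change 7.67 ± 0.65; adjusted p = 6.86e-08). H2-Aa, a class II chain, was at 0.171 and 1.49 TPM against 10.2 to 164 TPM (log2 fold change 5.17 ± 0.60; adjusted p = 3.87e-06). Both were lowest in tumor 3. Ciita, the master regulator of class II genes, was low throughout, at 0.701 to 2.44 TPM in the tumors and 0 and 0.0762 TPM in culture (adjusted p = 0.00982, and 0.135 and 0.0811 without culture 1 and 2). Class II genes are known from antigen presenting leukocytes, whose list sum was also lowest in tumor 3. The part of those cells in the class II result was not tested.

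Chemokines, complement and checkpoint genes were higher in the tumors with none lower: 15 of 23, 13 of 16 and 9 of 14 tested (5 of the checkpoint genes without either culture). In these lists 18 of 26, 10 of 16 and 11 of 15 genes were under 1 TPM in both cultures and could hardly be called lower. Cxcl9, which attracts T cells through CXCR3, was at 0 and 0.996 TPM in culture and at 78.9 to 1048 TPM in the tumors (log2 fold change 7.60 ± 0.65; adjusted p = 6.86e-08). Its relative Cxcl10 was already at 90.6 and 241 TPM in culture and reached 887 to 1982 TPM in the tumors (log2 fold change 3.18 ± 0.32; adjusted p = 6.12e-07). Ccl12 and Ccl6, attractants of monocytes, were listed at 0 in both cultures and had tumor medians of 104.8 and 45.8 TPM (adjusted p = 1.11e-08 and 4.77e-07). Ccl2, another monocyte attractant, was expressed by the cultured cells at 225 and 183 TPM and did not pass the threshold at 123 to 327 TPM in the tumors (log2 fold change 0.19 ± 0.25; adjusted p = 0.608). Tnf was listed at 0 in culture and at 3.60 to 20.6 TPM in the tumors (adjusted p = 8.10e-07). Cfb, factor B of the alternative complement pathway, was at 0 and 0.120 TPM against 22.9 to 64.8 TPM (log2 fold change 5.17 ± 0.30; adjusted p = 3.86e-10). Vsir, which encodes the inhibitory receptor VISTA, was at 0.191 and 0.764 TPM against 26.9 to 115 TPM (log2 fold change 5.87 ± 0.36; adjusted p = 9.52e-10). Entpd1, the ATP-degrading enzyme CD39, was listed at 0 in both cultures and at 2.35 to 26.8 TPM in the tumors (adjusted p = 1.27e-05). Cd274, which encodes PD-L1, was at 4.24 and 5.51 TPM in culture and at 2.25 to 30.9 TPM in the tumors, median 24.2 TPM. It did not pass the threshold over all 13 tumors (log2 fold change 1.54 ± 0.68; adjusted p = 0.114) and passed without the 4 tumors of GC index above 0.5 (log2 fold change 2.16; adjusted p = 7.58e-06).

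Matrix genes differed widely among themselves. In the list of 24 matrix and fibroblast genes, 19 rose and none fell, with a median log2 fold change of 2.27 and a sum of 505 and 848 TPM in culture against 2785 to 5818 TPM in the tumors. Bgn went from 2.74 and 1.09 TPM to between 280.4 and 823 TPM (log2 fold change 7.45 ± 0.36; adjusted p = 6.46e-11). Postn, the matricellular protein periostin, went from 0.563 and 1.02 TPM to between 18.1 and 54.7 TPM (log2 fold change 4.38 ± 0.33; adjusted p = 1.78e-08). Dpt, dermatopontin of skin fibroblasts, was listed at 0 in culture and at 6.45 to 34.9 TPM in the tumors (adjusted p = 1.65e-05). Dcn, the small proteoglycan decorin, varied from 13.0 TPM in tumor 2 to 638 TPM in tumor 12, against 1.67 and 6.81 TPM in culture (log2 fold change 5.22 ± 0.95; adjusted p = 0.000534). Pdgfra, Lum, Sfrp2, Pi16 and Mfap5 did not pass the threshold.

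Proteases that cut matrix rose unevenly, 12 of 20 higher and 1 lower. Mmp9, a gelatinase known from neutrophils and macrophages, was at 0.0719 and 1.84 TPM in culture and at 42.2 to 629 TPM in the tumors (log2 fold change 6.44 ± 0.67; adjusted p = 9.01e-07). The 5 resistant cultures held Mmp9 at 80.4 to 179 TPM. Mmp12, the elastase of macrophages, was at 0 and 0.247 TPM against 17.5 to 104 TPM (log2 fold change 5.22 ± 0.47; adjusted p = 1.37e-07). Plau, the plasminogen activator urokinase, was listed at 0 in both cultures and at 7.07 to 20.1 TPM in the tumors (adjusted p = 6.54e-08). Ctsl, cathepsin L, which the cultured cells held at 4922 and 7622 TPM, was the lower gene, at 2477 to 6760.0 TPM in the tumors (log2 fold change -0.89 ± 0.27; adjusted p = 0.0224, and 0.362 without culture 2).

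Genes of the TGF-beta superfamily moved in both directions. Of 19 tested, 8 were higher and 4 lower (4 and 3 without culture 1, 5 and 4 without culture 2). Without the 4 tumors of GC index above 0.5, 13 were higher and 5 lower. Tgfbi, a matrix protein induced by TGF-beta and abundant in macrophages, was at 0.0402 and 0.0536 TPM in culture and at 34.8 to 221 TPM in the tumors (log2 fold change 6.55 ± 0.40; adjusted p = 9.52e-10). Inhba, the activin A subunit, went from 1.47 and 4.66 TPM to between 14.9 and 41.7 TPM (log2 fold change 2.98 ± 0.37; adjusted p = 7.99e-06). The 4 lower genes were Id1, Id2, Id3 and Smad6, which are known as targets of the BMP branch. Id2 was at 147 and 143 TPM in culture and at 15.6 to 31.1 TPM in the tumors (log2 fold change -2.62 ± 0.24; adjusted p = 1.38e-07). Id3 was at 70.2 and 39.1 TPM against 2.23 to 8.28 TPM (log2 fold change -3.49 ± 0.32; adjusted p = 1.50e-07). Every tumor was below both cultures for all 4. Smad6 lost its call without culture 1 (adjusted p = 0.0603).

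The labelled origin in colon epithelium was checked against 18 epithelial marker genes, which were at or near 0 in both settings. Their sum was 6.20 and 9.69 TPM in culture and 5.18 to 19.5 TPM in the tumors, and of 11 tested 1 was higher and 2 were lower (1 and 0 lower without culture 1 and 2). Epcam was listed at 0 in both cultures, Krt8 was at 0.0467 and 0.364 TPM and Krt18 was listed at 0. The intestinal keratin gene Krt20 was at 2.07 and 3.44 TPM in culture with a tumor median of 0.357 TPM (log2 fold change -1.37 ± 0.31; adjusted p = 0.00357, and 0.120 without culture 2). Mesenchymal genes were abundant instead. Vim, the intermediate filament vimentin, was at 2467 and 3207 TPM in culture and 1989 to 3358 TPM in the tumors (adjusted p = 0.581). Within 12 mesenchymal genes 6 were higher and 3 lower (3 and 2 without culture 1). Zeb1, a repressor of epithelial genes, went from 6.71 and 8.66 TPM to between 47.7 and 113 TPM (log2 fold change 3.02 ± 0.26; adjusted p = 1.01e-07). The transcription factor gene Twist2 fell from 76.5 and 58.0 TPM to between 18.4 and 36.3 TPM (log2 fold change -1.34 ± 0.24; adjusted p = 0.000434). S100a4, a calcium binding protein of motile cells, fell from 2794 and 2887 TPM to between 659.8 and 1856 TPM (log2 fold change -1.33 ± 0.28; adjusted p = 0.00187). Fibroblasts also express Zeb1, and the fibroblast sum was higher in every tumor than in culture; the part of those cells in the rise was not tested.

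**Figure D3:**
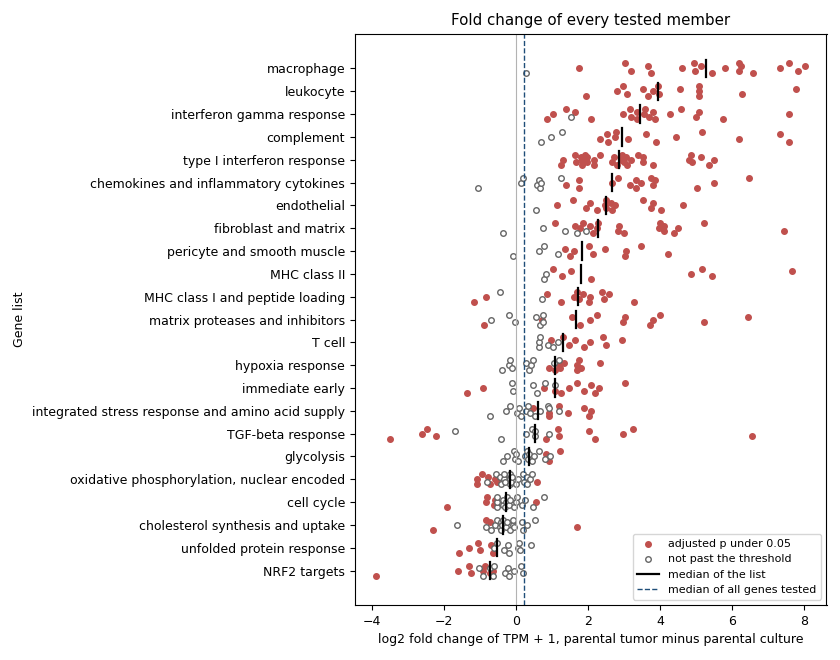
Log2 fold change of TPM + 1 (parental tumor minus parental culture) for every tested member of 23 gene lists, filled where the adjusted p was under 0.05, with the list median (black) and the median of all genes tested at 0.21 (dashed). Macrophage genes reach the highest median, 5.29, and NRF2 targets the lowest, -0.73.

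The median changes of growth gene lists were small beside these. The cell cycle, DNA replication, histone and ribosome biogenesis lists had larger shares called lower than the 5.99% of all genes tested. That 5.99% includes genes under 1 TPM in both cultures, which could hardly be called lower, and these lists hold none. Among genes at 10 TPM or more in both cultures, 722 of 7389 were lower, a share closer to those of the lists. Of 23 cell cycle genes 1 was higher and 5 were lower (none higher and 2 lower without either culture), with a median log2 fold change of -0.27. Mki67, the proliferation antigen Ki-67, was at 106 and 137 TPM in culture and 113 to 181 TPM in the tumors (log2 fold change 0.25 ± 0.19; adjusted p = 0.347). Ccnb1, the mitotic cyclin B1, fell from 168 and 157 TPM to between 19.7 and 63.1 TPM (log2 fold change -1.93 ± 0.33; adjusted p = 0.000247). The S phase cyclin gene Ccna2 fell from 428 and 511 TPM to between 229.8 and 292 TPM (log2 fold change -0.85 ± 0.15; adjusted p = 0.000303). Of 20 DNA replication genes 3 were lower and none higher, and 4 of 20 replication-dependent histone genes were lower. Most or all of these calls were lost when either culture was left out. Without the 4 tumors of GC index above 0.5, 8 cell cycle, 6 DNA replication and 4 histone genes were lower. Polyadenylated libraries usually hold little histone RNA, yet the histone list summed to 11614 and 9132 TPM in culture. In the tumors it summed to 6041 to 10604 TPM, and the copies share reads. Myc, the growth regulator, went up from 114 and 91.3 TPM to between 133 and 401 TPM (log2 fold change 1.35 ± 0.28; adjusted p = 0.00146, and 0.0538 without culture 2). Of 20 genes of ribosome biogenesis and MYC targets, 2 were higher and 4 lower (1 and 0 without culture 1, 0 and 1 without culture 2). Of 27 cytosolic ribosomal protein genes, 2 were higher (1 and 0 without culture 1 and 2).

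Of 29 nuclear genes of oxidative phosphorylation, 7 were lower and 1 higher (1 lower and 2 higher without culture 1, 3 lower and none higher without culture 2). Ndufb10, a subunit of complex I, fell from 460.3 and 638 TPM to between 227 and 287 TPM (log2 fold change -1.08 ± 0.15; adjusted p = 2.02e-05), with every tumor below both cultures. Of 18 glycolysis genes 3 were higher and none lower (none and 1 without culture 1 and 2), a share near the 16.1% of all genes tested. Hypoxia response genes were higher for 10 of 20, with a median log2 fold change of 1.07, but the cultures stood apart here too, with sums of 693 and 1797 TPM against 1731 to 3049 TPM in the tumors. Without culture 1 only 2 of the 20 were called, and without culture 2 there were 12. Ddit4, an inhibitor of the growth kinase mTOR, was called in both cases, from 96.6 and 128 TPM in culture to between 266 and 554 TPM in the tumors (log2 fold change 1.74 ± 0.24; adjusted p = 2.77e-05). Vegfa, the vessel growth factor, went from 53.9 and 96.0 TPM to between 122 and 286 TPM (log2 fold change 1.34 ± 0.28; adjusted p = 0.00165, and 0.131 without culture 1). The pH regulator gene Car9 was at 1.03 and 16.8 TPM in culture and at 14.03 to 62.9 TPM in the tumors, with overlap (log2 fold change 2.33 ± 0.57; adjusted p = 0.00561, and 0.464 without culture 1).

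Of 24 genes of cholesterol synthesis and uptake 3 were lower and 1 higher (no gene called without culture 1, and 1 lower and 1 higher without culture 2). In the efflux list, 4 of 8 genes were higher, Apoe, Abca1, Nr1h3 and Abcg1 (the last with an adjusted p of 0.280 and 0.183 without culture 1 and 2). Abca1, the cholesterol exporter, was at 0.0295 and 0.799 TPM against 5.27 to 13.6 TPM (log2 fold change 2.61 ± 0.30; adjusted p = 3.14e-06). Nr1h3, the sterol sensor LXR alpha, was at 0.117 and 0 TPM against 3.86 to 15.7 TPM (log2 fold change 2.91 ± 0.37; adjusted p = 1.03e-05). These 4 genes are also known from macrophages, whose list sum rose in every tumor, and the part of those cells was not tested.

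Stress pathways diverged. NRF2 targets, which protect against oxidants, were lower for 8 of 19 and higher for none, with a median log2 fold change of -0.73, and 2 and 4 of them were called without culture 1 and 2. Nqo1, a quinone reductase, went down from 241 and 160.4 TPM to between 2.03 and 24.6 TPM (log2 fold change -3.89 ± 0.54; adjusted p = 2.77e-05). Gclm, a subunit of the enzyme that starts glutathione synthesis, fell from 299.9 and 245 TPM to between 81.0 and 137 TPM (log2 fold change -1.30 ± 0.19; adjusted p = 5.32e-05). Hmox1, heme oxygenase, did not pass at 119 to 493 TPM in the tumors against 126 and 239 TPM (adjusted p = 0.716). Chaperones of the unfolded protein response were lower for 6 of 15 and higher for none (5 and 3 without culture 1 and 2). Pdia6, a disulfide isomerase, went from 1336 and 2434 TPM to between 492 and 699.8 TPM (log2 fold change -1.58 ± 0.18; adjusted p = 4.06e-06), while Hspa5, the chaperone BiP, did not pass (log2 fold change -0.34 ± 0.20; adjusted p = 0.245). The integrated stress response went the other way, with 8 of 22 genes higher and none lower (4 without either culture). Atf5 rose from 35.4 and 40.2 TPM to between 114 and 222 TPM (log2 fold change 2.03 ± 0.23; adjusted p = 3.25e-06) and the kinase regulator gene Trib3 from 42.5 and 56.2 TPM to between 108 and 223 TPM (log2 fold change 1.88 ± 0.22; adjusted p = 4.70e-06). Ddit3, the factor CHOP, rose from 33.0 and 40.1 TPM to between 65.2 and 191 TPM (log2 fold change 1.43 ± 0.29; adjusted p = 0.00127, and 0.0520 without culture 1). Immediate early genes, which react quickly to growth factors and stress, were higher for 10 of 18 and lower for 2 (7 and 0 without culture 1, 9 and 0 without culture 2), with Jun at 22.2 and 23.7 TPM in culture and at 76.3 to 185 TPM in the tumors (log2 fold change 2.31 ± 0.31; adjusted p = 2.02e-05).

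For genes that the cultured cells already expressed, a rise in the cancer cells and RNA from host cells cannot be told apart. Of 7389 tested genes at that level in both cultures, 534 were higher and 722 lower, with a median log2 fold change of -0.10. The 8 largest rises among them were Ecm1, Col6a2, Serpinf1, Ctsc, Fbn1, Ctsh, Cd68 and Cxcl10. Ecm1, a secreted matrix glycoprotein, went from 21.2 and 42.96 TPM to between 339 and 1220.4 TPM (log2 fold change 4.48 ± 0.37; adjusted p = 5.01e-08). It was highest in tumor 3, which had the lowest leukocyte sum and was also 1 of the 4 tumors of GC index above 0.5. A link to either was not tested. Col6a2, a collagen VI chain, went from 25.6 and 21.4 TPM to between 201 and 1053 TPM (log2 fold change 4.11 ± 0.45; adjusted p = 1.88e-06). Serpinf1, the antiangiogenic factor PEDF, went from 21.97 and 18.8 TPM to between 198 and 584 TPM (log2 fold change 3.96 ± 0.31; adjusted p = 2.89e-08). Ctsc and Ctsh, lysosomal cathepsins, and Cd68, a lysosomal protein of macrophages, were lowest in tumor 3, at 102, 72.4 and 90.8 TPM, still above both cultures.

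The 12 largest falls were in genes of varied function. All 12 had every tumor below both cultures, a separation that follows largely from choosing the largest falls in the same libraries. Over all genes tested, 8.94% had every tumor below both. Sprr1b, a cornified envelope precursor of squamous cells, was at 44.9 and 24.8 TPM in culture and at 0 to 7.06 TPM in the tumors (median 0.600; log2 fold change -4.27 ± 0.62; adjusted p = 4.76e-05). Slc5a1, the glucose cotransporter SGLT1, was at 21.7 and 24.3 TPM against 0.121 to 0.877 TPM (log2 fold change -4.09 ± 0.23; adjusted p = 3.60e-10). With either culture left out, Slc5a1 no longer passed the expression filter and has no value. Fndc3c1, a fibronectin type III domain gene, was at 93.5 and 82.0 TPM against 0.341 to 17.2 TPM (log2 fold change -4.09 ± 0.78; adjusted p = 0.000769).

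Enzymes and growth factors were among the others. Adh7, an alcohol dehydrogenase that oxidizes retinol, was at 92.7 and 123 TPM in culture and at 2.20 to 22.01 TPM in the tumors (log2 fold change -3.60 ± 0.64; adjusted p = 0.000451). Fgf7, the keratinocyte growth factor, was at 354 and 420.0 TPM against 14.5 to 70.7 TPM (log2 fold change -3.58 ± 0.42; adjusted p = 3.89e-06). Fgf7 was thus the most abundant of the 12 in culture by TPM. Phex, an endopeptidase of phosphate control, was at 31.4 and 63.9 TPM against 1.08 to 7.52 TPM (log2 fold change -3.50 ± 0.40; adjusted p = 3.50e-06), and Nrn1, the neurite growth factor neuritin, at 138 and 191 TPM against 5.20 to 33.0 TPM (log2 fold change -3.47 ± 0.38; adjusted p = 1.81e-06). Dfna5, the pore-forming protein gasdermin E, was at 30.5 and 22.6 TPM against 0.414 to 3.19 TPM (log2 fold change -3.32 ± 0.35; adjusted p = 1.06e-06), and Cd109, a surface co-receptor of TGF-beta, at 22.5 and 26.9 TPM against 0.350 to 4.64 TPM (log2 fold change -3.16 ± 0.44; adjusted p = 3.03e-05). Hlf, a transcription factor with daily rhythm, was the least stable, at 29.3 and 42.7 TPM against 0.127 to 15.7 TPM (log2 fold change -3.39 ± 0.78; adjusted p = 0.00373, and 0.0770 without culture 2). The share of cancer cells in each tumor library was not measured.

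**Figure D4:**
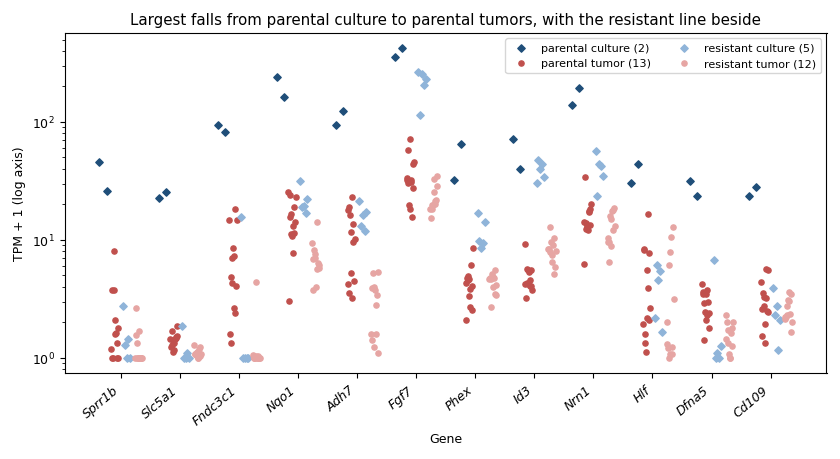
TPM + 1 (log axis) of the 12 genes with the largest falls in the 2 parental cultures (dark blue), 13 parental tumors (red), 5 resistant cultures (light blue) and 12 resistant tumors (pink). For Slc5a1 the parental cultures stand at 21.7 and 24.3 TPM, while the resistant cultures reach 0.870 TPM at most, and Fgf7 falls in both lines.

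The tumor-culture difference itself was compared between the parental and the resistant line in 1 fit of all 32 libraries. The interaction was called for 604 of 15061 genes, which is 4.01%, with a positive parental minus resistant difference for 243 and a negative one for 361. The genes followed here were chosen for their large change in the same parental libraries, and that choice favours a larger change in the parental line, so the direction of their differences is a description. Among the 12 largest falls the interaction was called for 9. For 8 of these, all but Id3, every resistant culture lay below both parental cultures. The same held for Adh7, Fgf7 and Hlf, the falls without a call, so it did not set the called genes apart. Slc5a1 was at 0 to 0.870 TPM in the resistant cultures (difference of the log2 fold changes -4.02 ± 0.24; adjusted p = 4.06e-14) and Cd109 at 0.158 to 2.89 TPM there (-3.31 ± 0.48; adjusted p = 1.56e-05). Nqo1 was at 15.8 to 30.4 TPM in the resistant cultures and at 2.79 to 13.3 TPM in the resistant tumors (-2.22 ± 0.56; adjusted p = 0.0157). Fgf7 fell in both, from 114 to 265 TPM in the resistant cultures to 14.2 to 33.5 TPM in the resistant tumors (-0.38 ± 0.45; adjusted p = 0.811), and the difference for Adh7 did not pass either (-0.98 ± 0.74; adjusted p = 0.626). Without parental culture 2, the interaction was called for 231 genes, and the calls of Fndc3c1, Nqo1, Nrn1 and Phex were lost (adjusted p = 0.189, 0.0732, 0.237 and 0.147). Without culture 1, those of Fndc3c1, Id3 and Nqo1 were (adjusted p = 0.147, 0.409 and 0.165).

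Of the 12 largest rises the interaction was called for 3, Tmsb4x, Apoe and C1qa, genes chosen in the same way. Apoe was at 2.20 to 18.3 TPM in the resistant cultures and at 369.7 to 829 TPM in the resistant tumors (difference 2.89 ± 0.54; adjusted p = 0.000704). For Ms4a4c, Cd74, Cxcl9 and Gzmc the difference was 0.20 ± 0.42, 0.63 ± 0.66, 0.53 ± 0.69 and 1.12 ± 0.42, with adjusted p of 0.904, 0.772, 0.831 and 0.149. Among the 8 rises from a level of 10 TPM, the interaction was called for Ecm1, Serpinf1, Fbn1, Cxcl10 and Ctsh, with a larger parental rise for all but Ctsh. For the first 4 the resistant cultures were already higher. Ecm1 was at 135 to 329 TPM in them, and its tumors overlap those of the parental line at 282 to 654 TPM (difference 3.58 ± 0.41; adjusted p = 3.29e-07). The calls of Tmsb4x, C1qa, Fbn1 and Cxcl10 were lost without culture 1 (adjusted p = 0.0672, 0.160, 0.190 and 0.0632) and those of C1qa, Fbn1 and Ctsh without culture 2 (adjusted p = 0.154, 0.178 and 0.229).

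The tumors also differed among themselves. The 8 genes with the largest spread of log2 level over the 13 tumors, among those with a mean of at least 10 TPM, were Sugct, Krtdap, Col1a1, Slc39a1, Dpysl2, Tubb5, Kdelr2 and Leprotl1. The last 6 of these were lowest in the same 4 libraries, tumors 2, 3, 7 and 8, which are the ones of GC index above 0.5 (0.810, 0.605, 0.625 and 0.793). Tubb5, a tubulin of every dividing cell, was at 15.7, 454, 98.8 and 98.4 TPM in tumors 2, 3, 7 and 8 and at 671 to 1271 TPM in the other 9, beside 1718 and 1609.6 TPM in culture. Over all tumors the Tubb5 difference was not called (log2 fold change -1.76 ± 1.21; adjusted p = 0.310), and without the 4 tumors it was -0.69 with an adjusted p of 0.0125. Col1a1, a chain of collagen I, was at 2.06, 15.7, 4.98 and 3.41 TPM in the 4 and at 43.6 to 364 TPM in the others. Its partner chain Col1a2 was at 12.5 to 90.1 TPM over all 13, with its lowest value in tumor 1 and its highest in tumor 3 (log2 fold change 4.11 ± 0.52; adjusted p = 1.10e-05). The Col1a1 difference was called over all tumors (log2 fold change 4.49 ± 1.37; adjusted p = 0.0248, and 0.175 and 0.161 without culture 1 and 2). What the GC index reflects in these 4 libraries was not tested. Without them, 2924 genes were higher and 1419 lower.

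**Figure D5:**
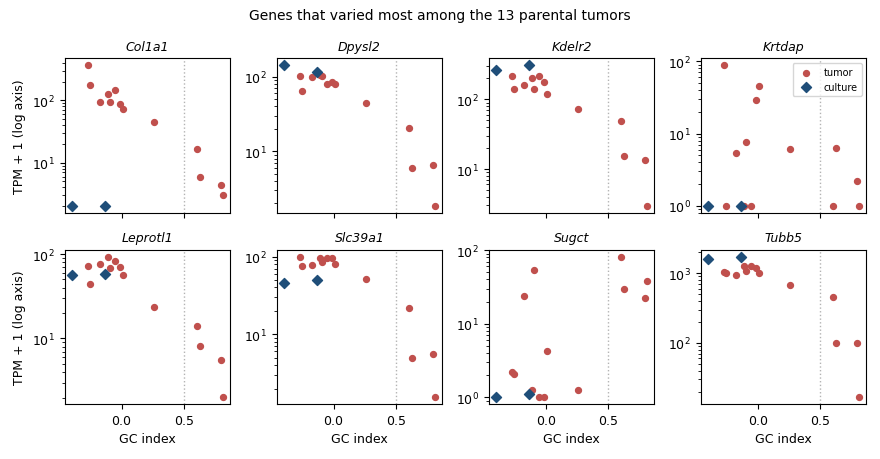
TPM + 1 (log axis) of the 8 genes that varied most among the 13 parental tumors (red) against the GC index of the library, with the 2 parental cultures (blue diamonds) and a dotted line at an index of 0.5. The 4 tumors to the right of the line are the lowest for Col1a1, Dpysl2, Kdelr2, Leprotl1, Slc39a1 and Tubb5, as for Tubb5 at 15.7 to 454 TPM.

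Sugct and Krtdap varied in another way. Sugct, a mitochondrial enzyme of glutarate metabolism, was at 0 in tumors 1 and 5 and at 80.6 TPM in tumor 3 (median 3.22), and at 0.102 and 0 TPM in culture. Krtdap, a keratinocyte differentiation gene, was listed at 0 in tumors 2, 3, 4, 5 and 12 and reached 86.6 TPM in tumor 10 (median 4.31), which also had the highest sum of keratinocyte genes, 120 TPM. Neither was called (adjusted p = 0.217 and 0.282).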

How the data were processed

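Poly(A) RNA of the 15 parental MC38 libraries was measured by RNA-seq. The deposited values are TPM, made by the authors. STAR and GRCh38, a human build, are named in the submitters' processing notes without a version, while 98.4% of the 22329 gene symbols match mouse GENCODE M21. The quantifier and annotation are not given in the sources used here. Groups follow the labels, and replicate numbers only follow deposition order. From the TPM, log2(TPM + 1) was computed for the 14348 genes at 1 TPM or more in at least 2 of the 15 libraries. The settings were compared with limma 3.58.1 in R 4.3.3 (empirical Bayes with an intensity trend, two-sided, Benjamini-Hochberg over all genes tested, threshold 0.05). A second fit of all 32 libraries tested the interaction with the line. The code was tested on simulated data. TPM carry no read depth, so counting error is unknown.

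Genes were named by rule: the 12 largest rises and 12 largest falls of called genes averaging 10 TPM or more where they are higher, the 8 largest rises among called genes at 10 TPM or more in both cultures, the 8 genes of largest SD over the tumors, up to 4 called genes per list with the lowest adjusted p, and defining markers. Other list genes named were chosen after their values were seen. Members and lists were chosen with earlier results of these data known. The list of small or nuclear noncoding RNAs had no gene in the table, leaving 51 lists, and 16 of 848 list genes were not analysed here. Promoter sequences are RefSeq GRCm38.p6, matched by symbol. The alternatives varied the pseudocount, filter, scaling, moderation, weights, test and libraries. A few genes are not reported here.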

Additional observations from a re-analysis of the deposited data

Results flagged for a closer look

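Of the 185 named genes past the threshold, 48 had a tumor-culture difference that itself differed between the parental and the resistant line. The test was the interaction in limma over all 32 libraries, at a Benjamini-Hochberg adjusted p under 0.05. The difference is given as parental minus resistant log2 fold change. Listed here are the 17 among the 12 largest rises, the 12 largest falls and the 8 largest rises from a level of 10 TPM. These 17 were named for large changes in the same parental libraries, which favours a larger parental change. Of the 17, 7 lost the call without parental culture 1, 7 without culture 2, 6 kept it without either (Apoe, Cd109, Dfna5, Ecm1, Serpinf1 and Sprr1b), and 1, Slc5a1, had no value in these fits. The rise was larger in the parental line for Ecm1 (3.58), Apoe (2.89), Serpinf1 (2.73), Cxcl10 (2.20), Tmsb4x (2.08), C1qa (1.35) and Fbn1 (1.32), and smaller for Ctsh (-1.45). The fall was larger in the parental line for Sprr1b (-4.08), Slc5a1 (-4.02), Fndc3c1 (-3.49), Cd109 (-3.31), Dfna5 (-3.26), Nqo1 (-2.22), Phex (-2.09), Nrn1 (-1.82) and Id3 (-1.23).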

How the results depend on the processing

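Over all genes, the counts of lower genes moved most. Quantile normalization gave 1492 lower genes, 881 of them at least 2-fold. Array weights gave 1520 lower genes, 1 fit of all 32 libraries 1348, and the fit without the 4 tumors of GC index above 0.5 gave 1419. Testing against a 2-fold minimum gave 662 higher and 54 lower genes. An exact rank-sum test called 0 genes, with 5257 at an unadjusted p under 0.05 and a smallest adjusted p of 0.0667, where limma had 4979 at an unadjusted p under 0.05. Leaving out 1 library at a time gave 1060 to 2563 higher and 249 to 1039 lower genes, and 1036 to 1916 and 192 to 446 with at least a 2-fold change. Of the 3169 called genes, 1318 were called without culture 1 and 1614 without culture 2. With 1 culture left, that library was assumed to vary like the tumors. The interaction was called for 231 to 714 genes when 1 library was left out, the lowest without parental culture 2, and for 965 with the GC index as a covariate. For these counts the cause was not tested. In 7 lists the balance of higher and lower calls turned: under quantile normalization keratinocyte and nerve (each from 1 and 0 to 0 and 1), under median-of-ratios scaling cytosolic ribosomal proteins (from 2 and 0 to 0 and 1), without culture 1 oxidative phosphorylation (from 1 and 7 to 2 and 1) and ribosome biogenesis (from 2 and 4 to 1 and 0), and without culture 2 colon epithelial and clock genes (each from 1 and 2 to 1 and 0). List medians changed sign for nerve (0.76 to -0.15) and clock (0.17 to -0.36) under quantile normalization, for ribosome biogenesis (-0.03 to 0.14) and histones (-0.23 to 0.01) without culture 1, for cytosolic ribosomal proteins (0.09 to -0.26) and YAP genes (0.21 to -0.06) without culture 2, and without the 4 tumors for colon epithelial genes (0.45 to -0.55) and cytosolic ribosomal proteins (to -0.05, as with the GC index as a covariate). Without the 4 tumors, glycolysis went from 3 to 5 higher and from 0 to 2 lower genes. Cholesterol synthesis and uptake went from 3 to 5 lower, and glucocorticoid response from 2 to 4 higher. No paired analysis was possible because replicate numbers only follow deposition order. The unknown depth limits what can be said of genes near 0.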

Other observations

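Counts for fixed lists that the report does not describe are read beside the 16.1% higher and 5.99% lower of all genes tested. Of 19 autophagy and lysosome genes tested, 6 were higher and none lower (1 and 4 without culture 1 and 2). Of 13 Wnt targets 5 were higher and 1 lower (1 and 0 higher, and none lower, without culture 1 and 2). Of 12 p53 targets 3 were higher and 1 lower (1 and 2 higher, and none lower). Of 14 YAP and mechanical genes 3 were higher (2 without either culture), of 11 glucocorticoid response genes 2 (1 without either), both near that share, and of 5 lymphatic endothelial genes 2 (1 without either). Of 12 fatty acid synthesis genes 2 were lower (1 and 0), and of 12 heat shock genes 2 (1 and 2). Of 14 clock genes 1 was higher and 2 were lower (1 and 1 without culture 1, 1 and 0 without culture 2). Of 7 mitochondrially encoded genes tested 1 was higher (none without either culture), but 5 were without the 4 tumors of GC index above 0.5 and in a fit with that index as a term (list medians 0.95 and 1.05 against 0.45).

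Laptm5, the leukocyte gene described for the parental line, was at 15.9 to 128 TPM in the 5 resistant cultures against 2.21 and 4.67 TPM in the parental ones (interaction 4.67 ± 0.52; adjusted p = 1.28e-07 by limma). It was singled out after its values were seen.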
